A study of Mus musculus with 8 samples.

Results

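Genes of cholesterol and fatty acid synthesis were examined in brain RNA from mice that drank trehalose, a glucose disaccharide. The genes were taken by symbol from a list of 34 enzymes, regulators and carriers of these pathways, and their probes were found by symbol or gene identifier in the platform's probe annotation. Of the 34 genes, 33 had a listed probe, and Fdps was not analysed here. Hmgcs1 and Elovl1 had 2 probes each, so the set, 33 of the 19321 genes named on the array, held 35 of the 23473 probes on the array, and all 35 were among the 21583 probes that were tested. Male C57Bl/6J mice, labelled as 9 weeks old and kept 3 to a cage, had 1 week of acclimatization and then drank water or trehalose. The control group was 2 mice on water taken at day 0, and the treated groups were 3 mice after 1 day and 3 mice after 10 days of trehalose, all sampled after 6 h of fasting and perfusion with heparin in buffer. Total RNA of each brain sample was amplified, labelled with Cy5 and read on 1 one-colour oligonucleotide array. The trehalose dose is not given in the sources used here. Since water was sampled only at day 0, trehalose and the time of sampling cannot be told apart. The tissue label is brain, the treatment text names the cerebral cortex and the design text the left hemisphere.

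Cholesterol of the adult brain is made within the brain, because lipoproteins of the blood do not cross the blood-brain barrier. Acetyl-CoA is built by the mevalonate steps into isoprenoids, these are joined to squalene, and squalene is closed and trimmed to cholesterol, while fatty acids are built from acetyl-CoA by carboxylation, chain extension and desaturation. Most of these enzymes are targets of the transcription factors SREBP1 and SREBP2, which Insig proteins hold in the endoplasmic reticulum when sterols are plentiful. Much of the brain's sterol and fatty acid goes into myelin.

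The array values were spot intensities, put on the log2 scale after background correction and normalization. They rank the same probe between mice and do not rank genes against each other. On the 8 arrays, 86.3% to 92.1% of the probes lay above a limit set 2 SD over the mean of the blanks. Of the 35 probes of the set, 34 lay above that limit on all 8 arrays, and Pmvk lay above it on 3 arrays. The correlation of log2 intensities between arrays, across the probes tested, was 0.994 to 0.998. Probes of all marker lists for neurons, astrocytes, myelin, microglia, endothelium, striatum and choroid plexus lay above the limit on all arrays. Striatal markers set 1 array apart: the second 1-day mouse had a median of -0.80 over their 10 probes, relative to the mean of the arrays, where the other 7 mice lay between -0.076 and 0.34. All 10 were lower at 1 day than in control (median -0.33), while 6 of 8 thalamic (median 0.17) and 6 of 7 choroid plexus markers (median 0.12) were higher. At 10 days against control, 7 of 10 striatal markers were lower (median -0.10), and 7 of 8 thalamic (median 0.19) and 7 of 7 choroid plexus markers (median 0.11) were higher. Between the times, all 10 striatal markers were higher at 10 days (median 0.28), 5 of 8 thalamic markers were higher (median 0.022) and 4 of 7 choroid plexus markers lower (median -0.0067). The first control mouse also stood out. On a liver and adipose list its median was 0.28 over 8 probes, where the other 7 mice lay between -0.20 and 0.10. Alb of that list read 8.03 in it and 6.00 to 7.11 in the others. All 10 striatal markers lay above their mean in it (median 0.30), against 0 of 8 thalamic (median -0.17) and 0 of 7 choroid plexus markers (median -0.15). The part of tissue content in any difference below was not tested. Without the second 1-day mouse, the 1-day differences from control of Scd2, Cyp51, Dhcr7 and Srebf2 described below were 0.20, 0.15, 0.13 and -0.15. The differences between the times were -0.13 for Me1, -0.13 for Acss2, 0.13 for probe M400009663 of Hmgcs1, 0.10 for Apoe and 0.12 for Fads1. In bulk tissue, fewer cells of a type and less RNA per cell cannot be told apart.

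The first question was whether any gene of these pathways differed between the groups. No probe of the set reached an adjusted p under 0.05 in any comparison (limma with Benjamini-Hochberg adjustment over all probes tested), and neither did any of the 21583 probes (0% in each). At 1 day against control, 17 of the 35 probes were higher and 18 lower, where 49.7% of all probes were higher, with a median log2 difference of -0.00016 and a range from -0.16 to 0.20. At 10 days against control, 19 were higher and 16 lower, where 48.6% of all probes were higher, with a median of 0.020 and a range from -0.077 to 0.16. Between the times, 22 were higher at 10 days than at 1 day and 13 lower, where again 48.6% of all probes were higher, with a median of 0.021 and a range from -0.16 to 0.15. The median over all probes tested was -0.0003, -0.0017 and -0.0015 in the same order. All 35 intervals (95%) lay within 0.58 log2 units of 0 in each comparison, which is a change of about 1.5 times. Within 0.26 log2 units, about 1.2 times, lay 23 of them at 1 day, 26 at 10 days and 29 between the times.

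**Figure D1:**
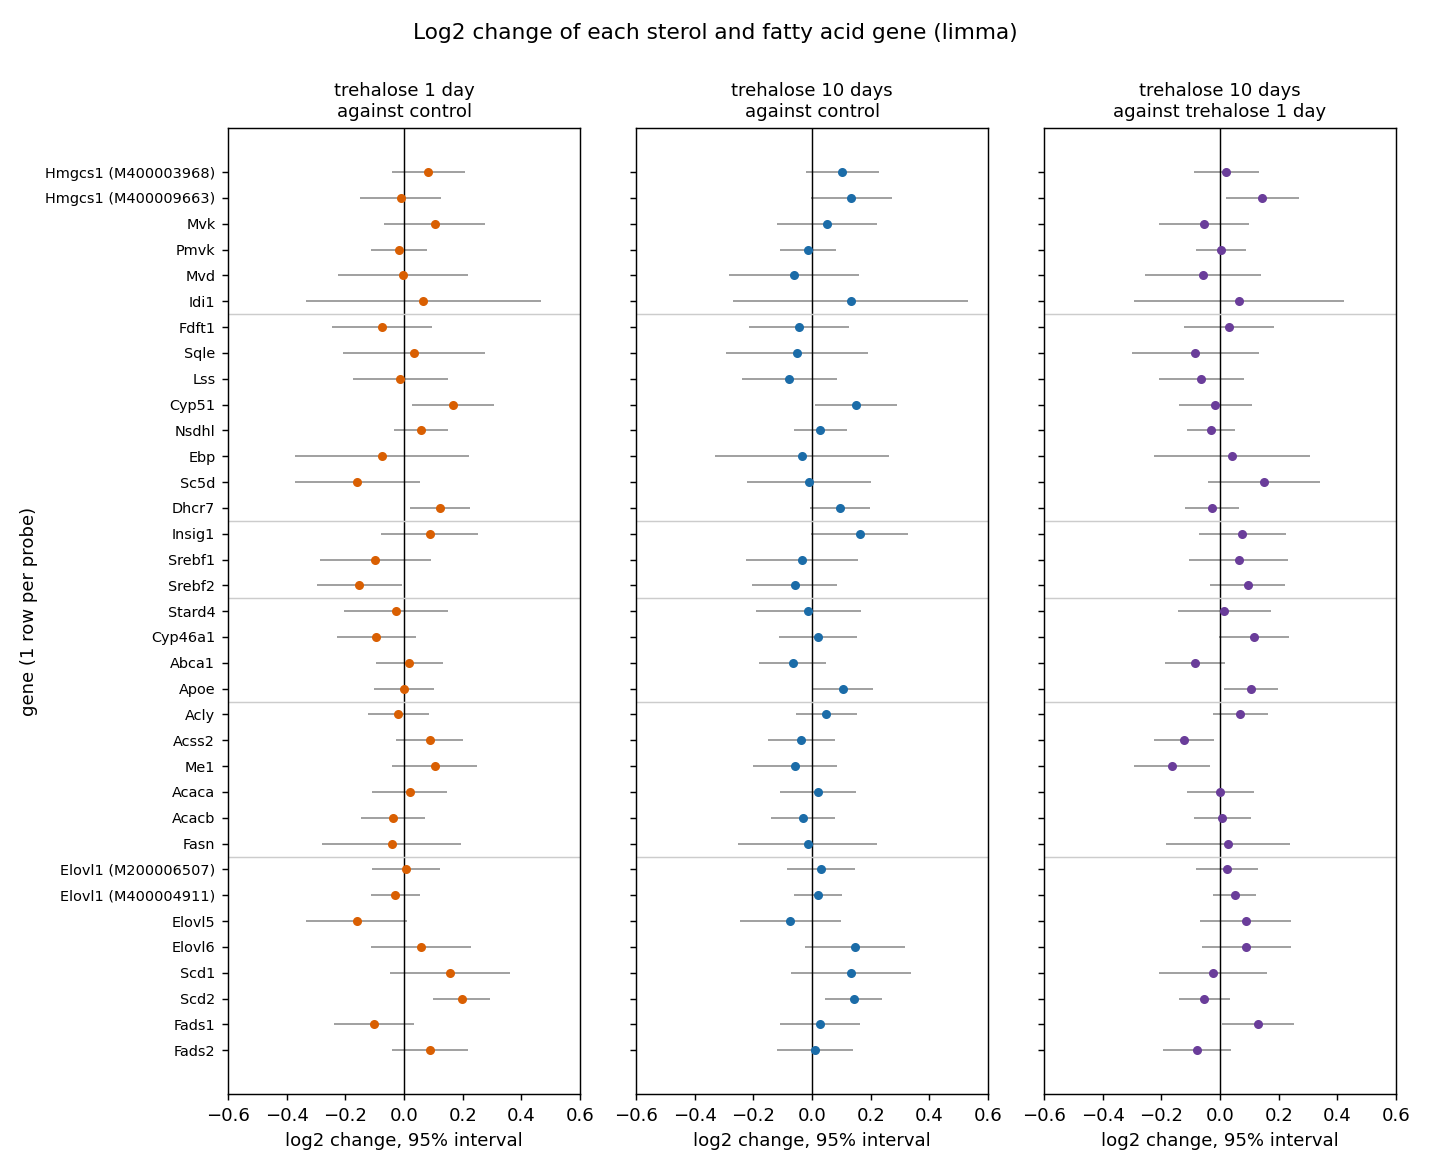
Log2 difference of each of the 35 probes (points) with its 95% interval (bars) for 1 day against control, 10 days against control and 10 days against 1 day of trehalose, from the limma fit to all 8 arrays. Every interval stays inside 0.58 to either side of 0, and most cross 0.

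Without adjustment, 4 of the 35 probes had a p under 0.05 at 1 day (3 higher and 1 lower, 11.4%), where 3.65% of all probes did, 2.02% higher and 1.62% lower. At 10 days it was 3 (all higher, 8.57%), against 2% of all probes, 1.23% higher and 0.774% lower. Between the times it was 5 (3 higher and 2 lower, 14.3%), against 3.5% of all probes, 1.85% higher and 1.65% lower. The comparisons with water share the 2 control mice, and Scd2 and Cyp51 were counted in both. Many of the probes counted here did not stay under 0.05 with other processing. With the blank mean subtracted, only Scd2 and Dhcr7 at 1 day did, and none at 10 days or between the times. In the authors' value table, only Srebf2 at 1 day and probe M400009663 of Hmgcs1 between the times did.

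At 1 day, 9 of the 35 probes had values in treated mice that were all above or all below those of the control mice (6 above and 3 below, 25.7%), against 18.2% of all probes, 8.97% above and 9.19% below. At 10 days there were 7 (all above, 20%), against 13.4% of all probes, 6.46% above and 6.97% below. Between the times, 6 were separated in this way (4 above and 2 below, 17.1%), against 8.4%, 4.01% above and 4.39% below. With trehalose of either time set against water, 18 of the 35 probes were higher, where 48.6% of all probes were. Of the 35, 3 had an unadjusted p under 0.05 in this comparison (8.57%, all higher), against 2.63% of all probes, 1.67% higher and 0.964% lower. The same 3 genes, Scd2, Cyp51 and Dhcr7, had all treated mice above both control mice, which 4.73% of all probes had in either direction, 2.75% above and 1.98% below. With the blank mean subtracted, only Dhcr7 of these 3 stayed under an unadjusted 0.05 in this comparison, and in the authors' value table none did. A single gene cannot pass a permutation test between smaller groups, since the smallest exact p, counting differences of either sign, is 0.1 for 2 mice against 3 or 3 against 3. For 6 against 2 it is 0.0357. Only a gene whose treated mice all lie on 1 side of the control mice can reach that value, so it adds nothing to the counts above. All p-values measure the spread between these mice, which may share cages.

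**Figure D2:**
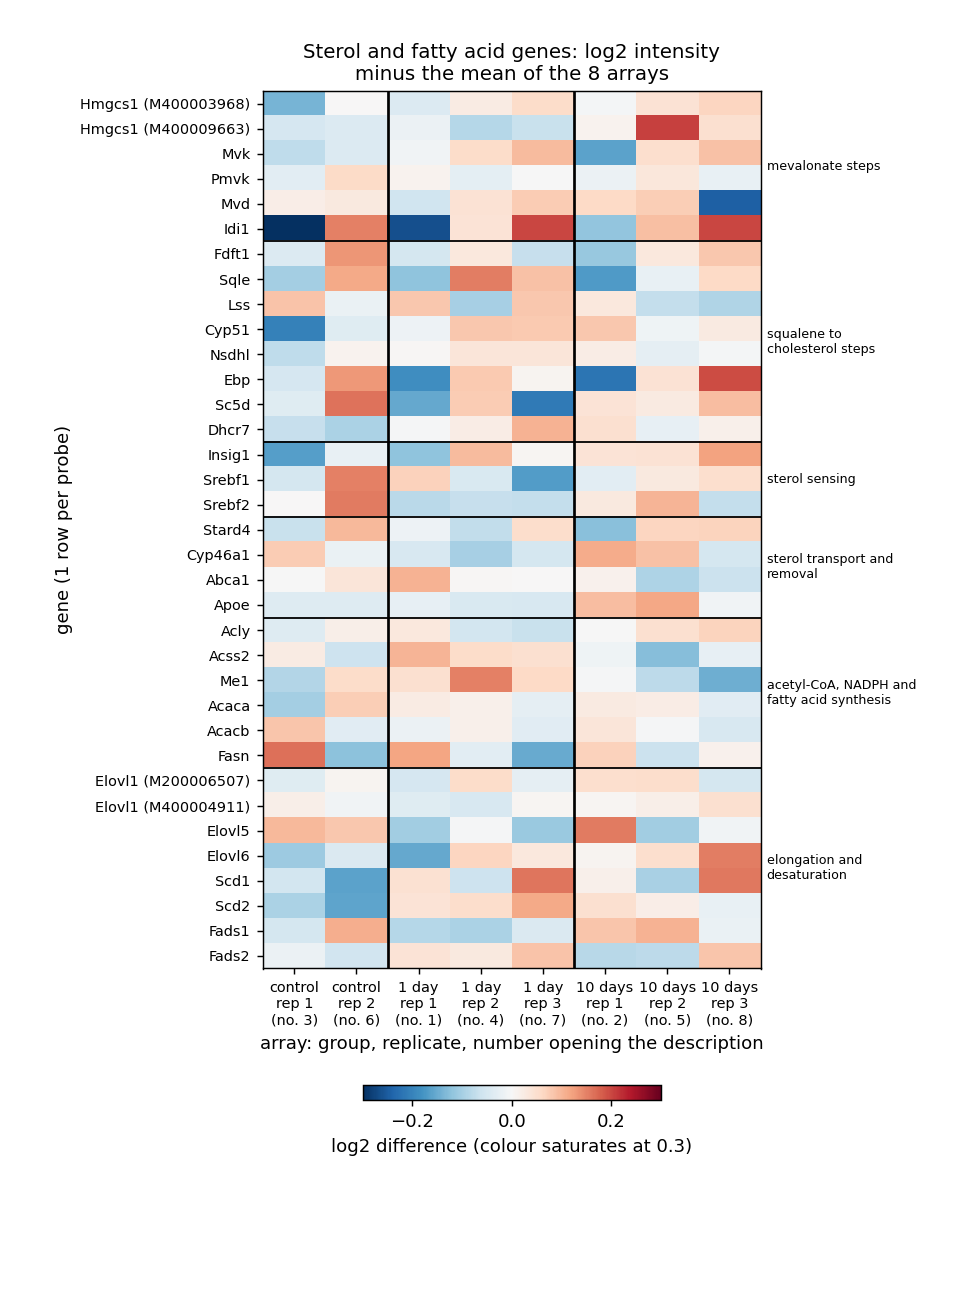
Log2 intensity of each of the 35 probes (rows, by pathway step) on each of the 8 arrays (columns, by group), as the difference from the mean of the 8 arrays, in colour. Scd2 and Dhcr7 are below their mean in both control mice, and Idi1 spans 0.50 log2 units over the arrays, with low and high values in every group.

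The mevalonate steps held 5 measured genes with 6 probes. At 1 day 3 of the 6 were higher than control and 3 lower, at 10 days 4 and 2, with medians of 0.031 and 0.077. Hmgcs1 is the synthase that makes HMG-CoA early in the pathway, and its 2 probes differed from each other. Probe M400003968 read 9.42 and 9.56 in control mice, 9.52, 9.59 and 9.62 at 1 day and 9.55, 9.61 and 9.62 at 10 days. Its lowest value was a control mouse, and the other control mouse lay inside both treated groups. Probe M400009663 read 8.43 and 8.44 in control mice, 8.46, 8.39 and 8.41 at 1 day and 8.49, 8.68 and 8.53 at 10 days. All 3 mice at 10 days were above the other 5. That probe was higher at 10 days than at 1 day by 0.14 ± 0.053 (SE, n = 3 and 3, limma unadjusted p = 0.0270, adjusted p = 1.00), and without the second 10-day mouse the difference was 0.086. Against control it was higher at 10 days by 0.13 (unadjusted p = 0.0561), and by 0.075 without that mouse. The first probe differed by 0.021 ± 0.048 between the times (unadjusted p = 0.670). Mvk and Pmvk, the kinases of mevalonate and of phosphomevalonate, had differences of 0.10 and -0.018 at 1 day. The signal of Pmvk was 1.08 to 1.15 times the blank mean. For Mvd, which makes isopentenyl diphosphate, the third mouse at 10 days read 7.36, below the 7.55 to 7.68 of the other 7. Idi1, which isomerises isopentenyl diphosphate, had the widest spread of the set: its 8 values spanned 0.50 log2 units, and its SD was 0.32 in control mice, 0.24 at 1 day and 0.16 at 10 days.

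The squalene to cholesterol steps held 8 genes with 1 probe each, of which 4 were higher and 4 lower at 1 day and 3 higher and 5 lower at 10 days (medians 0.010 and -0.022). Cyp51, lanosterol demethylase, read 8.38 and 8.55 in control mice, 8.57, 8.66 and 8.66 at 1 day and 8.66, 8.57 and 8.61 at 10 days. All 6 treated mice were above both control mice, though the lowest of them by little. The difference was 0.17 ± 0.060 at 1 day (SE, n = 3 and 2, limma unadjusted p = 0.0244, adjusted p = 1) and 0.15 ± 0.060 at 10 days (unadjusted p = 0.0374, adjusted p = 1). Both values rested on the first control mouse: without it they were 0.084 and 0.067, and without the other control mouse 0.25 and 0.23. Dhcr7, which carries out the last step of cholesterol synthesis, read 6.27 and 6.25 in control mice, 6.34, 6.37 and 6.45 at 1 day and 6.39, 6.32 and 6.36 at 10 days. Again the treated mice were all above the control mice, at a signal of 1.66 to 2.12 times the blank mean. Dhcr7 differed by 0.12 ± 0.044 at 1 day (unadjusted p = 0.0247, adjusted p = 1) and by 0.095 ± 0.044 at 10 days (unadjusted p = 0.0650, adjusted p = 1). The size depends on how background is handled, as it was 0.37 at 1 day with the blank mean subtracted in place of the model used here and 0.28 in the authors' value table.

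Fdft1 and Sqle, which make squalene and its epoxide, did not follow Cyp51 and Dhcr7. Fdft1 read 9.48 and 9.65 in control mice, 9.47, 9.55 and 9.45 at 1 day and 9.41, 9.55 and 9.60 at 10 days. Sqle, the monooxygenase that commits squalene to sterols, read 9.22 and 9.43 in control mice, 9.20, 9.47 and 9.41 at 1 day and 9.15, 9.30 and 9.38 at 10 days. In both genes the groups overlapped in every comparison. Differences from control were between -0.075 and 0.034, with SEs of 0.074 for Fdft1 and 0.10 for Sqle. The other genes of these steps, Lss, Nsdhl, Ebp and Sc5d, had differences from control between -0.16 and 0.058 at 1 day and between -0.077 and 0.029 at 10 days, and none had an unadjusted p under 0.05.

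Sterol sensing was represented by Insig1, Srebf1 and Srebf2, and 1 of the 3 was higher and 2 were lower than control at both times. Insig1, which retains the SREBP complex and is itself an SREBP target, read 7.44 and 7.58 in control mice, 7.48, 7.70 and 7.61 at 1 day and 7.64, 7.64 and 7.72 at 10 days. The 10-day mice were all above control, and the 1-day mice overlapped both groups. The difference at 10 days was 0.16 ± 0.071 (SE, n = 3 and 2, limma unadjusted p = 0.0536, adjusted p = 1), and it was 0.090 without the first control mouse and 0.23 without the other. Srebf2, the gene of SREBP2, read 7.64 and 7.80 in control mice, 7.56, 7.57 and 7.57 at 1 day and 7.67, 7.74 and 7.57 at 10 days. The 1-day mice were all below control, while the 10-day mice spread over both ranges. Srebf2 differed by -0.15 ± 0.062 at 1 day (unadjusted p = 0.0408, adjusted p = 1), by -0.075 without the second control mouse and by -0.23 without the first. Srebf1, whose main brain product SREBP1c drives fatty acid synthesis genes, read 7.68 and 7.89 in control mice, 7.81, 7.69 and 7.57 at 1 day and 7.70, 7.77 and 7.79 at 10 days. Its groups overlapped in each comparison, with differences of -0.097 and -0.034 from control.

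Among the genes of sterol transport and removal, Apoe was the one with a low unadjusted p. Apoe, the main lipid carrier that astrocytes secrete, read 13.64 and 13.64 in control mice, 13.66, 13.64 and 13.64 at 1 day and 13.78, 13.80 and 13.67 at 10 days. The 10-day mice were above all the others, and their own spread (SD 0.068) exceeded that of the other groups. The SD was 1.42e-05 in control mice and 0.013 at 1 day. Quantile normalization gives equal ranks on different arrays the same value, so such small SDs at the top of the scale may not measure the spread between mice. The difference was 0.10 ± 0.044 from control (SE, n = 3 and 2, limma unadjusted p = 0.0481, adjusted p = 1) and 0.10 ± 0.040 from 1 day (unadjusted p = 0.0313, adjusted p = 1.00). With arrays scaled to a common median in place of quantile normalization, these were 0.057 and 0.066, and with the local background subtracted 0.036 and 0.39. With the blank mean subtracted both were 0.10 (limma unadjusted p = 0.266 and 0.217). In the authors' value table they were 0.11 and 0.12 (limma unadjusted p = 0.273 and 0.188). Among 13 probes of an astrocyte marker list, 8 were higher and 5 lower at 10 days than in control (median 0.0026), and the list's log2 summed level was 14.95 to 14.98 at 10 days and 14.93 to 15.08 in control mice. The part of the astrocyte share in the Apoe value was not tested. Cyp46a1, the neuronal enzyme that turns cholesterol into 24-hydroxycholesterol for export, read 7.30 and 7.20 in control mice, 7.17, 7.12 and 7.17 at 1 day and 7.33, 7.31 and 7.17 at 10 days. The 1-day mice were below control by 0.095 on average (unadjusted p = 0.139), and the 10-day mice overlapped control. The cholesterol exporter Abca1 read 7.21 and 7.25 in control mice, 7.32, 7.22 and 7.21 at 1 day and 7.23, 7.12 and 7.15 at 10 days, with overlap throughout. For Stard4, a cytosolic sterol carrier, the differences from control were -0.027 and -0.012.

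**Figure D3:**
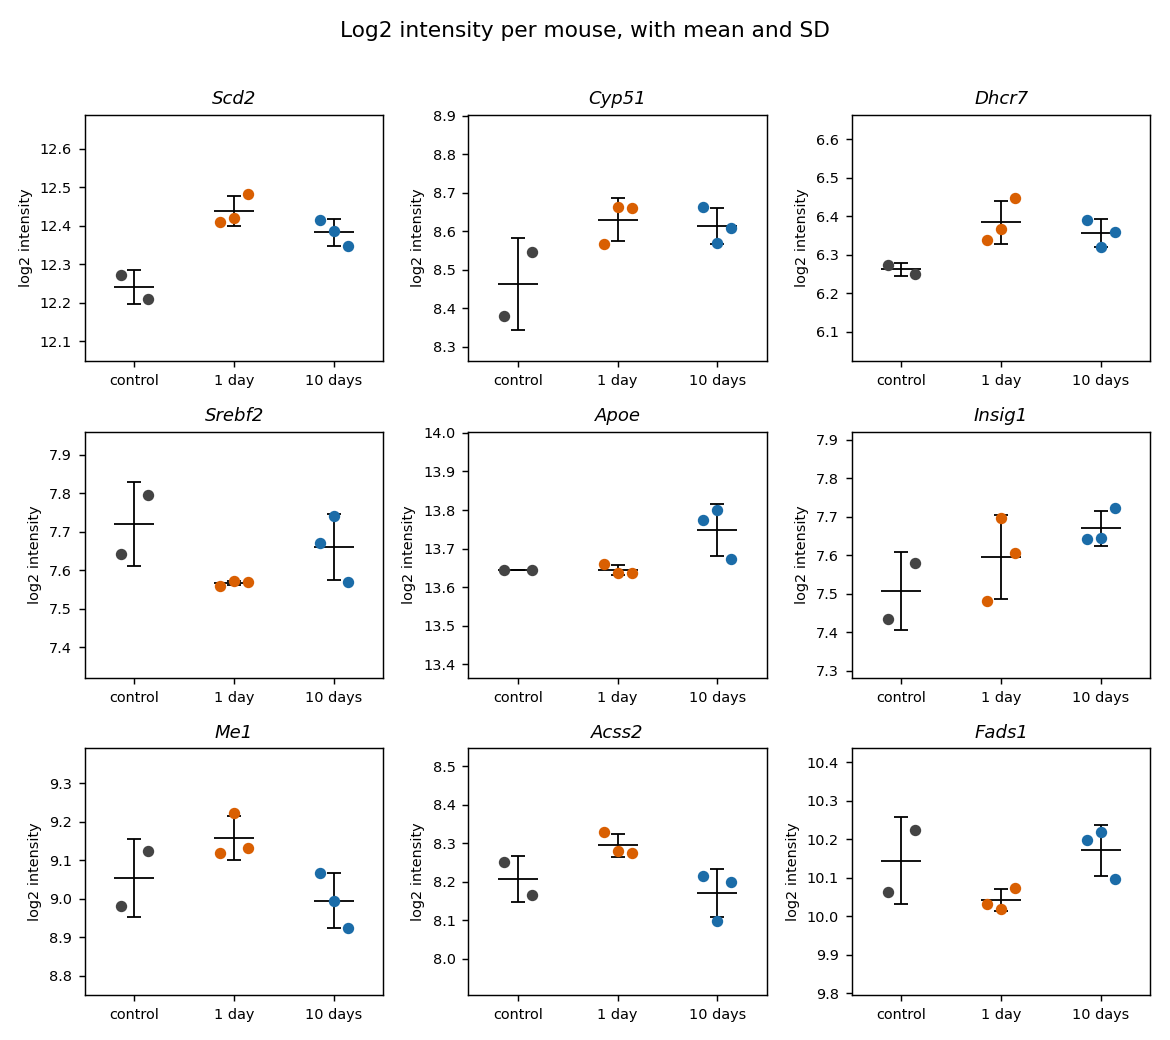
Log2 intensity of 9 genes in each mouse (points), with the group mean (line) and SD (bars), with axes of the same span in every panel. All treated mice are above both control mice for Scd2, Cyp51 and Dhcr7, Srebf2 is below control at 1 day, Apoe and Insig1 are above control at 10 days, and Me1, Acss2 and Fads1 separate the 1-day from the 10-day mice.

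The next 6 genes supplied or used acetyl-CoA and NADPH for fatty acid synthesis. Of their probes, 3 were higher and 3 lower at 1 day and 2 higher and 4 lower at 10 days than in control. Fasn, the synthase itself, read 9.22 and 8.93 in control mice, 9.17, 9.02 and 8.90 at 1 day and 9.12, 8.99 and 9.07 at 10 days. The 2 control mice held the highest value and almost the lowest, so that the treated mice lay between them or close to them. Acaca, the carboxylase that makes malonyl-CoA, read 8.63 and 8.81 in control mice, 8.76, 8.75 and 8.71 at 1 day and 8.76, 8.76 and 8.70 at 10 days, all treated mice within the range of the controls. Me1, malic enzyme, a source of cytosolic NADPH, read 8.98 and 9.12 in control mice, 9.12, 9.22 and 9.13 at 1 day and 9.07, 8.99 and 8.92 at 10 days. The 10-day mice were all below the 1-day mice, and control mice reached into both ranges. Me1 differed by -0.16 ± 0.056 between the times (SE, n = 3 and 3, limma unadjusted p = 0.0201, adjusted p = 1.00). Acss2, which makes acetyl-CoA from acetate, read 8.25 and 8.16 in control mice, 8.33, 8.28 and 8.27 at 1 day and 8.21, 8.10 and 8.20 at 10 days. Its 1-day mice were above all other mice. The difference between the times was -0.12 ± 0.044 (unadjusted p = 0.0234, adjusted p = 1.00). Acly, which makes acetyl-CoA from citrate, and Acacb, the mitochondrial carboxylase, differed by at most 0.068 in any comparison of groups.

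Chain extension and desaturation held the gene with the lowest p of the set. Scd2, the stearoyl-CoA desaturase that prevails in brain, read 12.27 and 12.21 in control mice, 12.41, 12.42 and 12.48 at 1 day and 12.42, 12.39 and 12.35 at 10 days. Each treated mouse was above each control mouse, and the SD within groups was 0.035 to 0.045. Scd2 was higher than control by 0.20 ± 0.042 at 1 day (SE, n = 3 and 2, limma unadjusted p = 0.00173, adjusted p = 1), which is 1.15 times. At 10 days it was higher by 0.14 ± 0.042 (unadjusted p = 0.0100, adjusted p = 1), which is 1.10 times. With the blank mean subtracted, the differences at 1 day and 10 days were 0.20 and 0.14 (limma unadjusted p = 0.04997 and 0.135). In the authors' value table they were 0.18 and 0.16 (limma unadjusted p = 0.0879 and 0.143). With each array left out in turn, the 1-day difference was 0.16 to 0.23. It changed sign, to -0.42, where the deposited local background was subtracted, a column that followed the spots themselves. Scd2 is abundant in oligodendrocytes, and of 19 probes of a myelin and oligodendrocyte list 8 were higher and 11 lower at 1 day (median -0.013) and 10 higher and 9 lower at 10 days (median 0.0054). The list's log2 summed level was 14.78 to 14.86 in control mice, 14.69 to 14.93 at 1 day and 14.83 to 14.88 at 10 days.

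Scd1, the isoform best known from liver and fat, read 10.18 and 10.08 in control mice, 10.29, 10.18 and 10.40 at 1 day and 10.25, 10.14 and 10.40 at 10 days. Its mean differences of 0.16 and 0.13 were in the direction of Scd2, but groups overlapped and the SE was 0.089. Fads1, the delta-5 desaturase of polyunsaturated fatty acids, read 10.06 and 10.22 in control mice, 10.03, 10.02 and 10.07 at 1 day and 10.20, 10.22 and 10.10 at 10 days. The 10-day mice were above the 1-day mice by 0.13 ± 0.053 (SE, n = 3 and 3, limma unadjusted p = 0.0402, adjusted p = 1.00). Fads2, its delta-6 partner, had a difference of the opposite sign, -0.078. Elovl5, an elongase of polyunsaturated chains, read 10.27 and 10.25 in control mice, 10.07, 10.17 and 10.06 at 1 day and 10.33, 10.07 and 10.16 at 10 days. Its 1-day mice were all below control, by 0.16 ± 0.074 on average (unadjusted p = 0.0628, adjusted p = 1), and its 10-day mice lay on both sides. Elovl6, which extends palmitate, had differences of 0.058 at 1 day and 0.15 at 10 days (unadjusted p = 0.455 and 0.0812), and the largest difference of the 2 probes of Elovl1 was 0.050.

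The widest spread of the set, that of Idi1, followed none of the groups. Each description opens with a number from 1 to 8, whose meaning the labels do not give. Numbers 1, 4 and 7 are the 1-day mice, 2, 5 and 8 the 10-day mice, and 3 and 6 the control mice, so replicate 1 of each group has the lowest numbers. With the groups kept in the fit, 8 of the 35 probes had a slope over this number at an unadjusted p under 0.05 (22.9%, 7 rising and 1 falling), against 10.9% of all probes, 5.46% rising and 5.39% falling. None passed adjustment in the set or among all probes. The excess was not kept in all settings. In the authors' value table it was 2 of 35 (5.71%) against 5.87% of all probes. Without the first 1-day mouse it was 4 (11.4%) against 11.7%. It was 5 (14.3%) without the first or the third 10-day mouse, against 5.93% and 11% of all probes, and also without either control mouse, against 8.91%. This fit was added after the values had been seen. Idi1 read, from number 1 to number 8, 8.42, 8.56, 8.38, 8.72, 8.77, 8.83, 8.88 and 8.88. The first 3 arrays were low and the last 5 high whichever group they came from. Its slope was 0.075 ± 0.013 per number (SE, limma unadjusted p = 7.59e-04, adjusted p = 0.198), or 0.52 log2 units from 1 to 8. Ebp, the sterol isomerase, read in the same order 8.12, 8.08, 8.25, 8.38, 8.35, 8.43, 8.31 and 8.50. Its slope was 0.052 ± 0.012 (unadjusted p = 0.00408, adjusted p = 0.241). Sqle, whose values are given above, had a slope of 0.041 ± 0.011 (unadjusted p = 0.00811, adjusted p = 0.284).

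The other probes with such a slope were Mvk (0.027), Elovl6 (0.027), Stard4 (0.025), the first probe of Hmgcs1 (0.018) and, falling, Fasn (-0.035). By step, these were 3 of 6 probes of the mevalonate steps, 2 of 8 of the squalene to cholesterol steps, 1 of 4 of transport and removal, 1 of 6 of fatty acid synthesis and 1 of 8 of elongation and desaturation. The second probe of Hmgcs1 had a slope of -0.00044. With the number as a covariate, the 5 differences with the lowest p of each comparison kept their directions. The numbers are spread almost evenly over the groups, so this fit could change those differences little. For either time against control it could not change them at all. Kept directions therefore do not show that the differences are free of the number. Cyp51 and Scd2 had slopes of 0.0092 and -0.0021 per number. The slopes of Idi1, Ebp and Elovl6 turned negative where the local background was subtracted. Of 19 myelin probes, 5 had a slope at an unadjusted p under 0.05 (26.3%, 4 rising and 1 falling), and of 14 neuron probes 5 (35.7%, 1 rising and 4 falling), against the 10.9% of all probes. None passed adjustment, and the median slope of the myelin list was -0.0043. Their part in the slopes of the sterol genes was not tested.

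**Figure D4:**
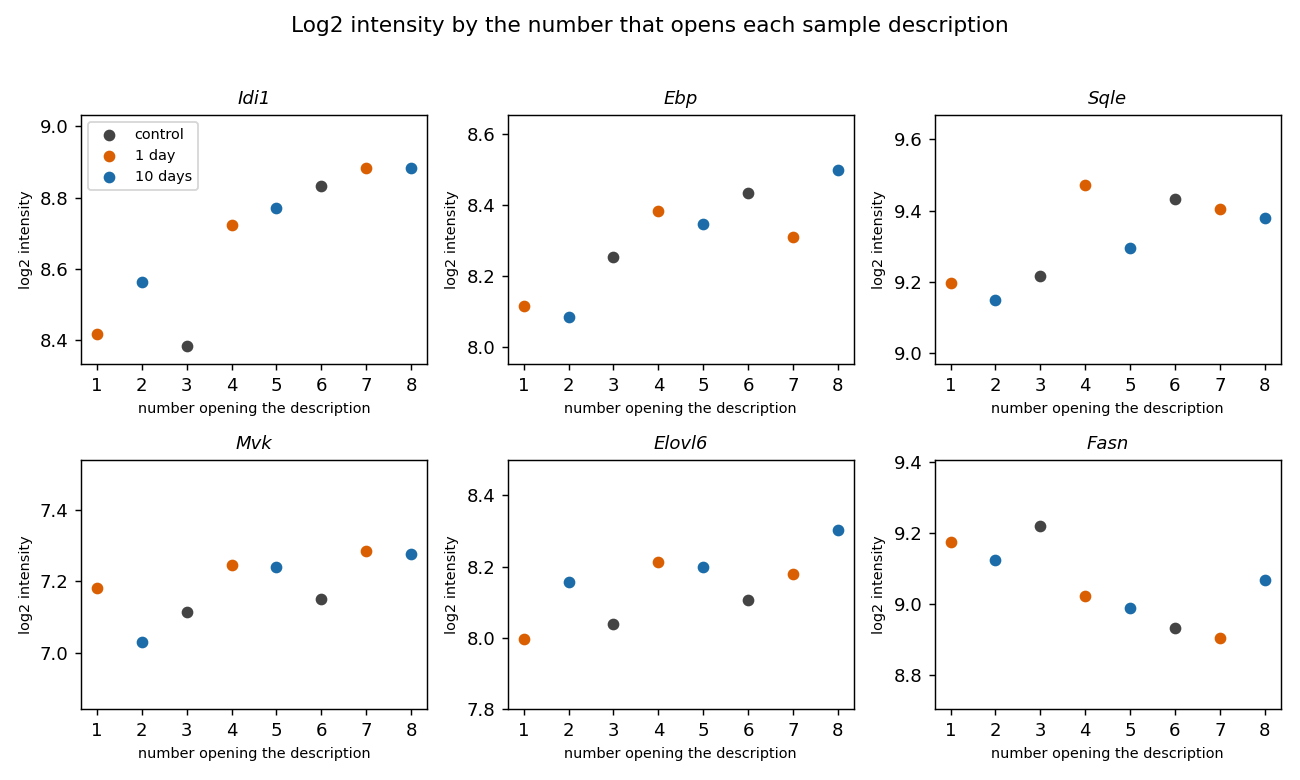
Log2 intensity of 6 genes on the 8 arrays against the number at the head of each description, with colour for the group. Idi1, Ebp, Sqle, Mvk and Elovl6 are lower on numbers 1 to 3 than on most later arrays in every group, and Fasn is higher there.

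Promoters of 5 of these genes are shown because the first 3 were among those with an unadjusted p under 0.05 over the number, a choice made after their slopes were seen, while Hmgcs1 and Cyp51 are sterol genes with the differences given above. SREBPs bind sterol response elements, often beside CCAAT boxes, which the factor NF-Y binds, and Sp1 sites. Each line holds the 250 bases before the start of the gene on its own strand, from RefSeq on GRCm38.p6, with sterol response elements (TCACNCCAC) and CCAAT boxes of either strand in capitals. The stretches are chr13:8885356-8885605 (plus strand) for Idi1, chrX:8193513-8193762 (minus) for Ebp, chr5:114444019-114444268 (plus) for Mvk, chr13:119690101-119690350 (plus) for Hmgcs1 and chr5:4104698-4104947 (minus) for Cyp51.
Idi1: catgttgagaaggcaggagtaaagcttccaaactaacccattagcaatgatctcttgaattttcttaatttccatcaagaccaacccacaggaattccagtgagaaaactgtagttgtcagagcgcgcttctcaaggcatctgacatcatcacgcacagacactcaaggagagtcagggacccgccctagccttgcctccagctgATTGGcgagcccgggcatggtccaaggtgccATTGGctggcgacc
Ebp: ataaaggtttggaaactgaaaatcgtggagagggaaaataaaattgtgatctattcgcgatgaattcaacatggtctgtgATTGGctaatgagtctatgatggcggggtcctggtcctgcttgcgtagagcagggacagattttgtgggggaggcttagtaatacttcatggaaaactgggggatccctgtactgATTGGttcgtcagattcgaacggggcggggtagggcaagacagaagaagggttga
Mvk: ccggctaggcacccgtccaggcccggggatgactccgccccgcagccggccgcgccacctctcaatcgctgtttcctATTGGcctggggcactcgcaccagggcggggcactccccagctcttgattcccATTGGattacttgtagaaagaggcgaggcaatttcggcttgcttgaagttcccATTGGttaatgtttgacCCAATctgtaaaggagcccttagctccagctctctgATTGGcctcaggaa
Hmgcs1: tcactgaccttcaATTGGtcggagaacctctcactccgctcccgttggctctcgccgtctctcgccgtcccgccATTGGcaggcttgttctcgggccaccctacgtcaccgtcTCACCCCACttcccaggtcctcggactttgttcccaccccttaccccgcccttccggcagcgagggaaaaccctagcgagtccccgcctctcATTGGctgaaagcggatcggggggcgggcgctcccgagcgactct
Cyp51: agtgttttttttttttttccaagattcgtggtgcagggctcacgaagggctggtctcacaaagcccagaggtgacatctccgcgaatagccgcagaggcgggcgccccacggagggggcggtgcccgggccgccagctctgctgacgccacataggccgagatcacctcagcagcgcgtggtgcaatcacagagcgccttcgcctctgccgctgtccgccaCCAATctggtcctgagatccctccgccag

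Mvk held 5 CCAAT boxes, Hmgcs1 3, Idi1 and Ebp 2 each and Cyp51 1. The only sterol response element of these letters lay in Hmgcs1, 137 bases before the gene's start. Of the 34 genes, 27 had a promoter in the RefSeq table. The table had no entry for Fads1, Fdft1, Fdps, Scd1, Scd2, Sqle and Stard4. Motifs were counted on both strands, each on its own, with any overlap between them allowed. A gene counted if any of its promoters in the table held the motif, and the 27 genes had 36 promoters. A CCAAT box was found in 21 of the 27 (77.8%), against 37.5% of 27025 genes. GGGCGG, a core Sp1 sequence, was in 20 (74.1%), against 35.4% of all genes. The sterol response element was in 1 (3.70%), against 1.23%, and the E-box CANNTG, which SREBPs can also bind, in 17 (63.0%), against 69.3%. Counted by single promoter, the shares were 61.1% against 33.85% of all promoters for CCAAT and 63.9% against 32.7% for GGGCGG. For the sterol response element they were 2.78% against 1.05%, and for the E-box 58.3% against 66.2%. These are matches of letters in a window and say nothing of binding.

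Other genes of the same pathways, 62 tested probes on lists chosen for their function, included none past the adjusted threshold in any comparison. At 1 day 30 were higher than control and 32 lower, and at 10 days likewise, with medians of -0.0075 and -0.0023. At an unadjusted p under 0.05 there was 1 at 1 day (1.61%, against 3.65% of all probes) and 0 at 10 days (against 2%). Between the times there were 6 (9.68%, 3 higher and 3 lower, against 3.5%). For either time there was 1 (1.61%, higher, against 2.63%). The 1 gene at 1 day was Npc2, a lysosomal carrier that hands cholesterol to Npc1. Npc2 read 9.63 and 9.54 in control mice, 9.72, 9.71 and 9.75 at 1 day and 9.63, 9.62 and 9.60 at 10 days. The 1-day mice were above all others, by 0.14 ± 0.039 against control (SE, n = 3 and 2, limma unadjusted p = 0.00748, adjusted p = 1). The Npc2 mean was 9.73 at 1 day and 9.61 at 10 days. Lrp1, an Apoe receptor, was higher at 10 days than at 1 day by 0.18 ± 0.060 (unadjusted p = 0.0173), and Elovl4, which makes very long chains, by 0.18 ± 0.062 (unadjusted p = 0.0204). Mcat, of mitochondrial fatty acid synthesis, was lower by 0.12 ± 0.046 (unadjusted p = 0.0347).

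Of the 8 probes of other sterol synthesis genes, none had an unadjusted p under 0.05 in any comparison of groups. The lowest p values there were those of Ggps1, which makes geranylgeranyl diphosphate (0.21 ± 0.12 at 1 day, unadjusted p = 0.117), and Msmo1, which removes methyl groups from sterols (0.21 ± 0.10 between the times, unadjusted p = 0.0739). Next to them stood the sterol reductases Hsd17b7 (0.057 at 1 day) and Tm7sf2 (-0.17 at 10 days). In sterol control and traffic, Lrp1 had a difference of -0.13 at 1 day, and at 10 days the exporter Abcg4 differed by -0.12 and the lipid carrier Apod by 0.060. In fatty acid and lipid synthesis, the differences with the lowest p at 1 day were those of Fabp5, a fatty acid binding protein (-0.12), and Mid1ip1, an activator of Acaca (0.13). At 10 days they were those of the acyl-CoA synthetase Acsl3 (0.093) and of Mlxipl, which codes for the glucose-responsive factor ChREBP (0.084), and for either time the triglyceride enzyme Dgat2 differed by -0.11. None of these had an unadjusted p under 0.05.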

How the data were processed

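Per the file headers, the scanner files of the authors give spot intensity in 1 channel at 635 nm as the pixel median, with 3 gains joined by least-squares lines. A value table of the authors, a blank-subtracted intensity on a linear scale as found from the values, served as an alternative. Its median was 25 on every array, and 1502 to 2763 values per array were missing. Before the fit it was put on the log2 scale after adding 1 and quantile normalized. Software, scan date and genome build are not given in the sources used here. Log2 intensities were computed with limma 3.58.1 in R 4.3.3: normexp background correction with an offset of 50, failed spots removed, quantile normalization, and spots of a probe averaged. The offset compresses the differences of dim probes. The deposited local background was left out, since it tracked the spots (correlation of log intensities 0.943 to 0.985). A probe was tested if 2 arrays or more had it over the blank mean by 2 SD, which 21583 of 23473 met, and 20690 probes had a symbol. All 8 arrays entered 1 fit with 3 groups (5 residual degrees of freedom), with eBayes and Benjamini-Hochberg adjustment at 0.05. The fit was run on simulated data with independent noise for each probe and array. That checks the code and not how these arrays vary together. Precision is limited by the number of arrays, and a 95% interval of a log2 difference from control reached a median of 0.139 to either side in the set and 0.130 over all probes.

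The members and lists were chosen with earlier results of these data known. Named with all values were 13 genes fixed by their role and, in each comparison, the 5 probes of the set with the lowest unadjusted p; of the other pathway genes, the 2 with the lowest p in each list and comparison. Replicate numbers in the labels were checked for pairing by correlating the deviations of mice from their group means. The correlations were -0.026 to 0.26 over 7 pairs of same-numbered mice and -0.31 to 0.21 over 14 pairs with different numbers. Among same-numbered mice only the second 1-day and second 10-day mice had a value below 0. Deviations cancel out within a group, and those of the control mice mirror each other, so these correlations are not independent. They cannot settle whether same-numbered mice deviate together, and the main fit did not take them as pairs. Alternatives covered background, normalization, filter, variance model, array weights, probe choice, the authors' table, a replicate block, the description number and each array left out. Promoters came from RefSeq, GRCm38.p6.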

Additional observations from a re-analysis of the deposited data

How the results depend on the processing

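No probe of the set passed the adjusted threshold under any of the 20 alternatives (12 settings and 8 fits without 1 array). Of all probes, the count past the threshold was 0, but 1 with the blank mean subtracted and 1 with trended and robust variances at 10 days and between the times, and 0 to 2 with 1 array left out at 1 day, at 10 days and for either time, the 2 coming without control replicate 1. With the replicate block, 0 probes and 0 of the set passed in each comparison. The 20 pairs of gene and comparison with the lowest p kept their direction in 392 of 398 refits, a count of signs and not of low p-values. The 6 exceptions all came with the local background column: Srebf2 0.40 and Scd2 -0.42 at 1 day, Hmgcs1 probe M400009663 -0.30 and Acss2 0.082 between the times, and Hmgcs1 probe M400003968 -0.11 and Scd2 -0.0014 for either time; the cause was not tested. That column also gave slopes over the description number of -0.032 for Idi1, -0.0033 for Ebp and -0.026 for Elovl6. The median of the set was 0.085 at 1 day, -0.017 between the times and 0.069 for either time with it, and -0.033 at 1 day and 0.092 between the times with the authors' value table. With 1 array left out it was -0.0081 to 0.028 at 1 day, 0.0061 to 0.068 at 10 days and 0.00035 to 0.043 for either time, the higher ends without control replicate 2. Over all 140 differences of the set, the sign turned in 50 with the local background column, in 25 without control replicate 1, in 26 without control replicate 2 and in at most 12 under any other alternative. The count of probes of the set that followed the number was 4 with the blank mean subtracted (11.4%, against 9.49% of all probes), 3 with the local background (8.57%, against 4.95%), 5 with median scaling (14.3%, against 11.4%), 2 with the authors' table (5.71%, against 5.87%) and 4 to 8 with 1 array left out (against 5.93% to 11.7%), in place of 8 (22.9%, against 10.9%). Over the number, 10 of all probes passed adjustment with trended and robust variances. With 2 control mice, differences under about 0.139 could not be told from 0 for a typical gene of the set.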
